A study of Saccharomyces cerevisiae with 2 samples.

Results

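The 10 genes described here encode enzymes of lower glycolysis in yeast, from aldolase to pyruvate kinase: FBA1, TPI1, TDH1, TDH2, TDH3, PGK1, GPM1, ENO1, ENO2 and CDC19. They were chosen by name, as enzymes of the pathway and not by their values, from the 5631 nuclear protein-coding genes of assembly R64 that had a probe in the gene and in the 3 kb on either side. For each gene the probes inside it (the body) were compared with those up to 3 kb upstream and up to 3 kb downstream, read along the coding strand. All 10 were matched by symbol, with 36 body probes and 226 flank probes on 7 chromosomes, and 5 genes lay on each strand.

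The study mapped DNA double strand breaks in budding yeast of strain WFA73, genotype mec1 (the allele was not stated), a mutant of the checkpoint kinase gene MEC1. Cells arrested in G1 with alpha factor entered S phase in 200 mM hydroxyurea, a drug that depletes deoxynucleotides, for 1 h, and after its removal recovered for 1 h in fresh medium. One culture recovered without BPS and the other with 0.8 micromolar BPS, an iron chelator, and each was hybridised on its own array beside G1 DNA of the same mec1 strain. The comparison asked whether the chelator altered where breaks lie.

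In the Break-chip assay, broken DNA ends are filled in with a dye-coupled nucleotide in agarose and located on a tiling array. With 1 array per group, differences between the arrays could not be set against replicates, and p-values are not given. Each value is the log2 of the deposited ratio, set to a median of 0 on its array, so 0 is the genome median and 1 is a 2-fold higher ratio. The standard error (SE) given after ± is over the probes of a window on 1 array and covers scatter within that array only. The ratio was taken as recovery over G1, because its columns carry the names of the recovery samples, although the sources used do not state its numerator; every sign would turn if it ran the other way. Extra copies of replicated DNA, broken ends in the G1 channel and dye bias are not separated from recovery breaks, and a share of cells with breaks cannot be told apart from breaks per cell. TDH1, TDH2 and TDH3 are close copies of each other, as are ENO1 and ENO2, so probes in their bodies may share signal.

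Glycolysis converts glucose to pyruvate and yields ATP, and fermenting yeast runs it at a high rate. Its enzymes are among the most abundant proteins of the cell, and their genes are among the most strongly transcribed, driven by the activators Gcr1 and Rap1. Transcription and replication use the same template, and the places where they meet are widely studied as sites of fork stalling.

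Most of the 10 genes lay in stretches of high signal on both arrays. The body was above the genome median at 8 of 10 genes without BPS, where 50.1% of all genes were, and at 7 of 10 with BPS, against 51%, these 7 being above it on both arrays, against 42.9%. Levels above 0.5 were seen at 6 of 10 bodies without BPS (27% of all genes), 4 with BPS (28.8%) and 4 on both (20.5%), which were PGK1, ENO1, ENO2 and CDC19. At 7 of 10 the body and both flanks were above the median on both arrays, which was so at 28.6% of all genes: TDH1, PGK1, ENO1, ENO2, CDC19, FBA1 and TPI1. The median body level of the 10 was 0.67 without and 0.23 with BPS, beside 0.005 and 0.02 over all genes. The flank medians were 0.78 and 0.81 upstream and 0.64 and 0.55 downstream. Upstream flanks were above the genome median at 9 of 10 genes without BPS (49.7% of all genes) and 8 of 10 with BPS (47.5%), and downstream flanks at 10 of 10 (50.3%) and 9 of 10 (49.5%).

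**Figure D1:**
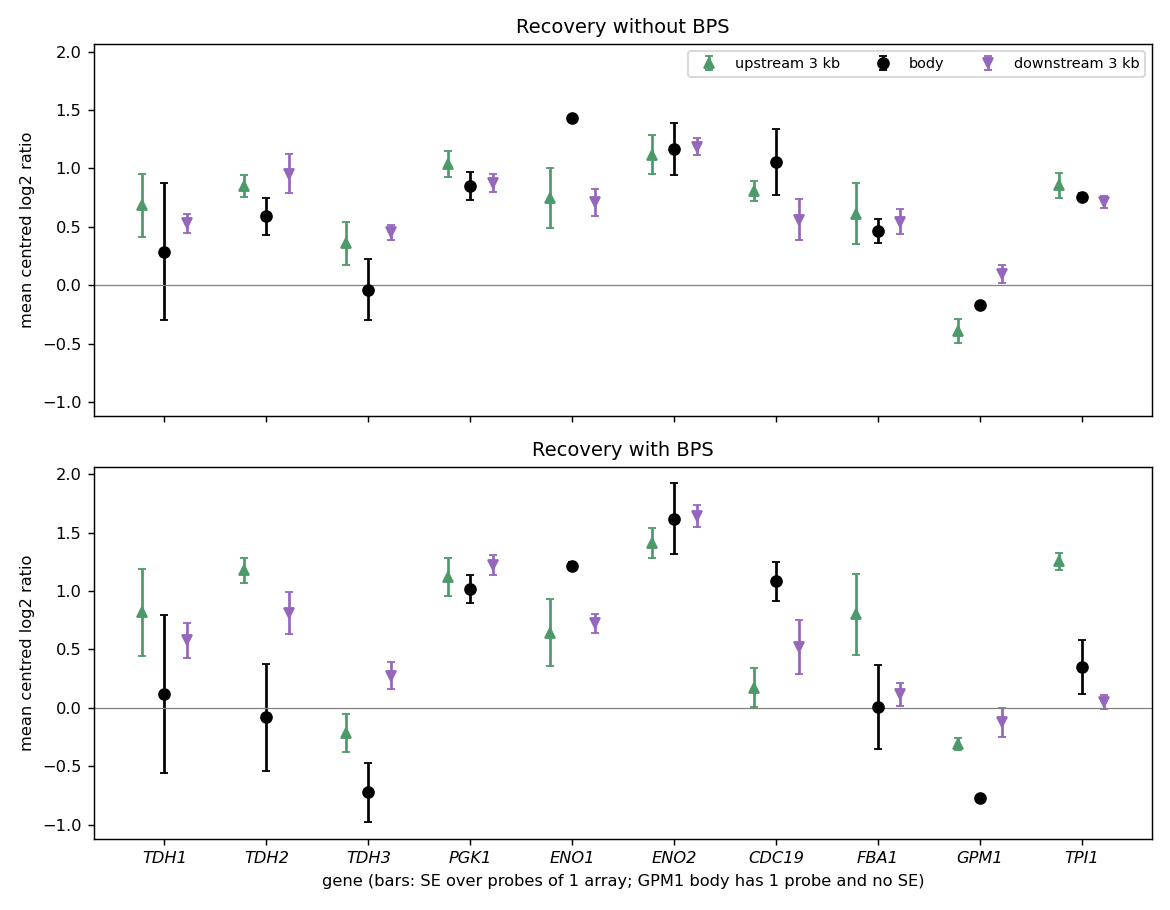
Mean centred log2 ratio (vertical axis) of the body, upstream 3 kb and downstream 3 kb of each gene (horizontal axis) in recovery without BPS (top) and with BPS (bottom). Bars are SE over probes, and 0 is the genome median; ENO1, ENO2, CDC19 and PGK1 have bodies above 0.8 on both arrays, while the bodies of TDH3 and GPM1 are below 0 on both.

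The mean signal of the wider surroundings was also above 0 at most of the genes. The counts in this paragraph were not made over all genes, so they cannot be set against the genome. The mean signal within 20 kb either side of the gene was above 0 at 8 of 10 on each array, and its median over the 10 genes was 0.29 in recovery without the chelator and 0.35 with it. The body exceeded this regional mean at 8 of 10 genes without BPS, all but TDH3 and GPM1, and at 5 of 10 with BPS, where the bodies of TDH2, TDH3, FBA1, GPM1 and TPI1 lay below it. The regional mean exceeded the median of the gene's own chromosome at 8 of 10 genes, though at PGK1 without BPS by only 0.001. Over all 10 genes the median of this difference was 0.25 without and 0.23 with BPS. The exceptions on both arrays were TDH1 (−0.04 and −0.10 against its chromosome) and CDC19 (−0.04 and −0.17). TPI1, on chromosome IV with the lowest chromosome median of the 7, stood 0.65 and 0.75 above it.

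**Figure D2:**
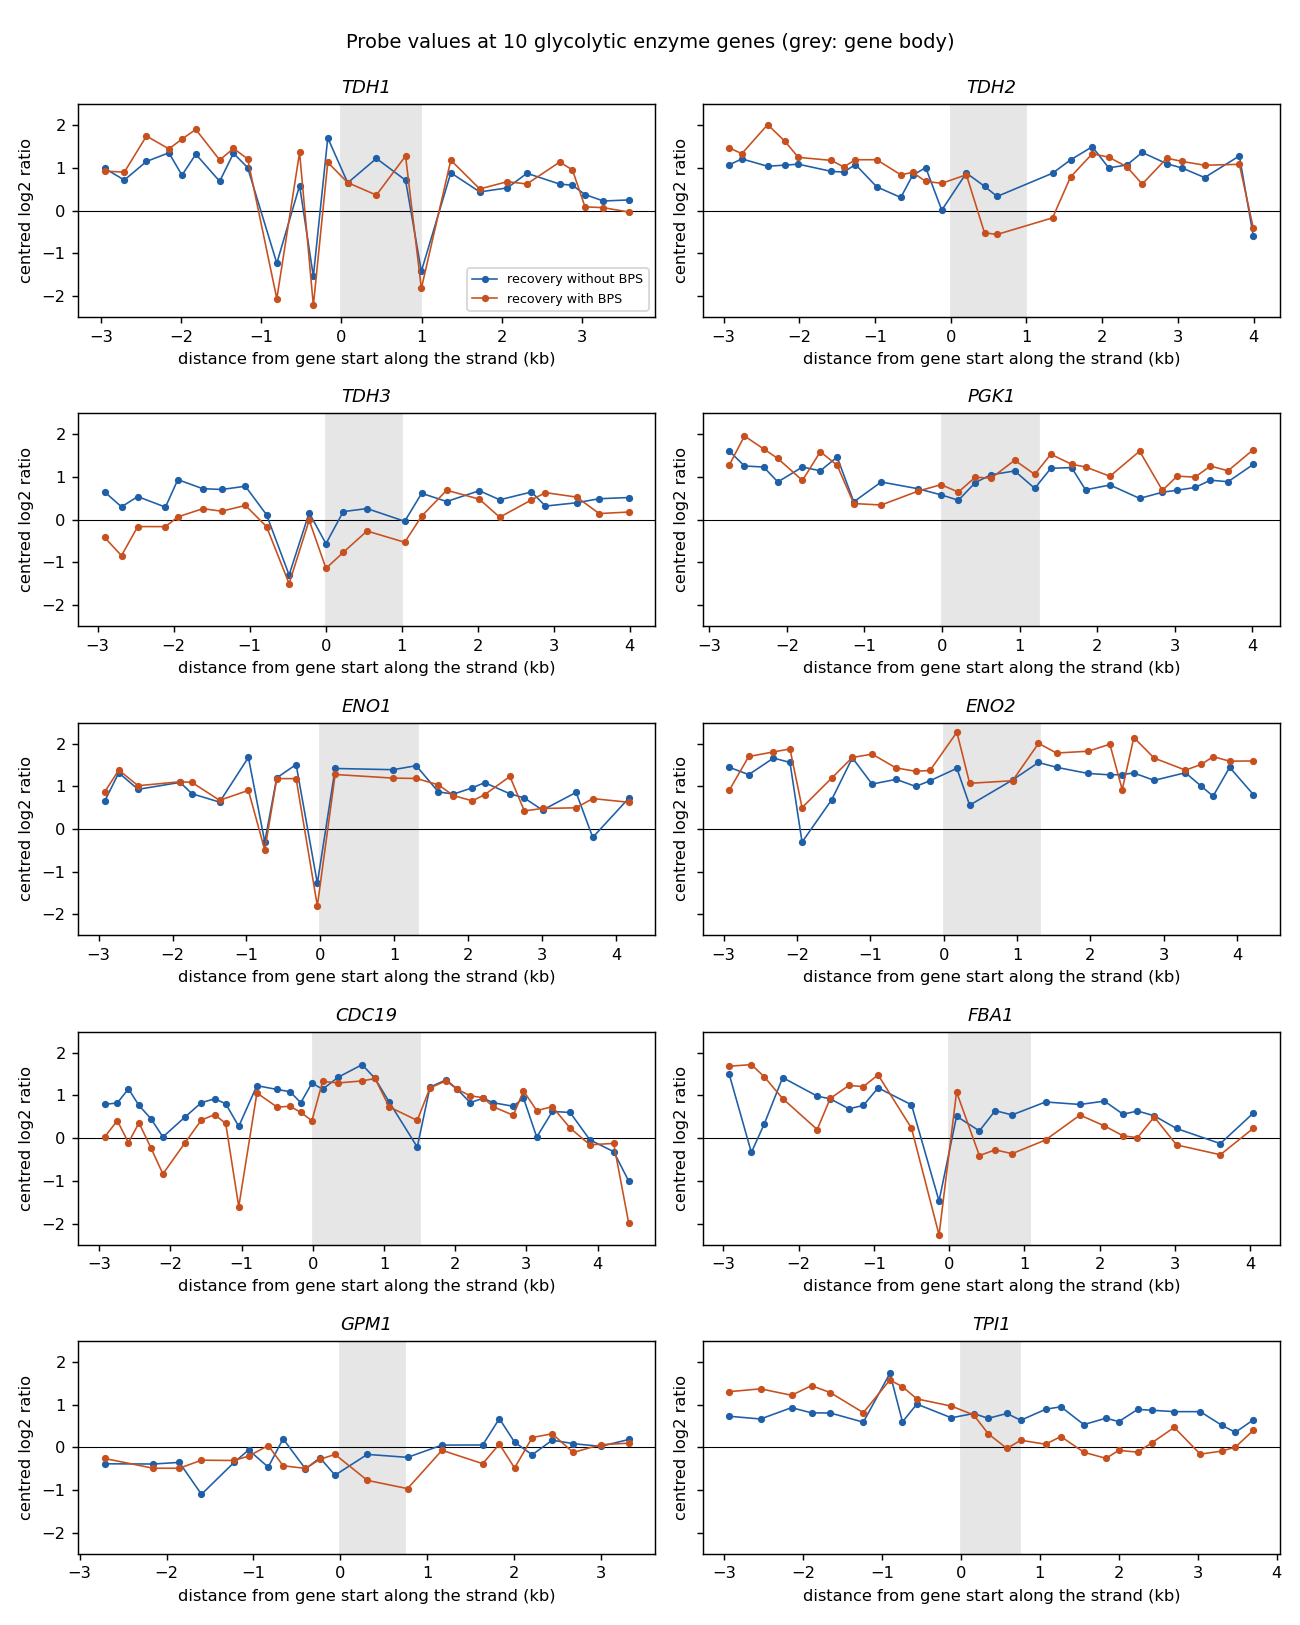
Centred log2 ratio (vertical axis) of every probe in and within 3 kb of each gene, against distance from the gene start along its strand (horizontal axis, kb), without BPS (blue) and with BPS (orange); the gene body is grey. The tracks separate throughout the body of TDH3, in parts of the bodies of TPI1, FBA1 and TDH2, and upstream of CDC19 and TDH3. Inside ENO1 they differ by 0.30 or less.

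FBA1 encodes aldolase, which splits the phosphorylated sugar into trioses. It lies on the Crick strand of chromosome XI, with 4 body probes from 326.649 to 327.387 kb of the deposited coordinates. Read from the start, the body probes had 0.51, 0.17, 0.64 and 0.54 without BPS and 1.08, −0.41, −0.27 and −0.36 with it. The first probe was thus higher with BPS and the other 3 were lower, which gave body means of 0.47 ± 0.10 and 0.01 ± 0.36. Downstream all 9 probes were lower with BPS, with means of 0.55 ± 0.11 and 0.11 ± 0.10. Upstream the means were 0.61 ± 0.26 and 0.80 ± 0.34, and MPE1, a gene for messenger RNA 3′ end formation in that flank, had 0.91 and 1.01. The high first probe with BPS stood between low ones: the probes before the start, at 327.62 and 327.986 kb, read −2.26 and 0.23 with BPS, and −1.47 and 0.78 without.

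TPI1 encodes triose phosphate isomerase, which interconverts the trioses, and had the highest upstream minus downstream value of the 10 with BPS. It lies on the Crick strand of chromosome IV (3 body probes, 555.888 to 556.31 kb). From the start inward its probes had 0.79, 0.68 and 0.79 without BPS and 0.76, 0.32 and −0.03 with BPS. On the upstream side the 10 probes ranged from 0.59 to 1.73 (median 0.77) without and from 0.81 to 1.58 (median 1.29) with BPS, and 9 of the 10 were higher with BPS. On the downstream side the 13 probes ranged from 0.35 to 0.95 (median 0.68) without and from −0.26 to 0.47 (median 0.01) with BPS, and all 13 were lower with BPS. With BPS the upstream and downstream probes did not overlap, whereas without BPS they did. How often the flanks of other genes separate in this way was not computed. Upstream minus downstream was 0.14 ± 0.12 without and 1.20 ± 0.10 with BPS. The neighbours carried the same split: DBF4, the activating subunit gene of the Cdc7 replication kinase, lies upstream and had 0.76 ± 0.07 and 1.44 ± 0.07, while VMS1 downstream had 0.75 ± 0.05 and −0.02 ± 0.09.

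TDH1, TDH2 and TDH3 encode the isozymes of glyceraldehyde phosphate dehydrogenase, and at all 3 the body lay below both flanks on both arrays. TDH3, the main isozyme in growth on glucose, lies on the Crick strand of chromosome VII (3 body probes, 883.267 to 883.807 kb). From the start its probes had −0.56, 0.19 and 0.26 without BPS and −1.14, −0.76 and −0.26 with BPS, so each was lower with BPS. The body means of −0.04 ± 0.26 and −0.72 ± 0.25 differed by −0.69 ± 0.14. The upstream flank differed nearly as much, from 0.36 ± 0.18 to −0.22 ± 0.16, with all 11 probes lower: they ranged from −1.29 to 0.94 (median 0.54) without and from −1.5 to 0.34 (median −0.16) with BPS. There XKS1, the xylulokinase gene, had 0.54 and −0.27, and PDX1, a gene of the pyruvate dehydrogenase complex, 0.58 and 0.16. Downstream, towards the histidine permease gene HIP1, the means were 0.45 ± 0.07 and 0.27 ± 0.12.

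TDH2 lies on the Crick strand of chromosome X (3 body probes, 454.069 to 454.475 kb), and no probe lies between 453.336 and 454.069 kb, which includes the 3′ part of the gene. From the start its probes had 0.88, 0.57 and 0.33 without BPS and 0.84, −0.52 and −0.56 with BPS. The first was nearly equal on both arrays and the other 2 were about 1 log2 unit lower with BPS. The body means were 0.59 ± 0.16 and −0.08 ± 0.46. Upstream 12 of 13 probes were higher with BPS, with means of 0.85 ± 0.10 and 1.18 ± 0.11, and MET3, the ATP sulfurylase gene there, had 1.06 and 1.48. Downstream the means were 0.96 ± 0.17 and 0.81 ± 0.18, so TDH2 with BPS was a narrow trough between high flanks, with a body minus flank contrast of −1.08 ± 0.47 against −0.31 ± 0.19 without BPS. This contrast is the body mean minus the average of the upstream and downstream means.

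TDH1, on the Watson strand of chromosome X, had 4 body probes from 338.35 to 339.269 kb. They read 0.65, 1.22, 0.71 and −1.42 from the start without BPS, and 0.65, 0.36, 1.28 and −1.82 with BPS. Only the last probe was below 0, on both arrays, and it alone placed the body mean (0.29 ± 0.58 and 0.12 ± 0.67) below the flanks. With single low probes left out, as defined below, the contrast without BPS turned from −0.32 to 0.06. The low body of TDH1 was thus a matter of 1 probe, while at TDH2 and TDH3 more than 1 probe was low.

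PGK1 encodes phosphoglycerate kinase, the enzyme of the first ATP-yielding step. On the Watson strand of chromosome III its 5 body probes (137.957 to 138.941 kb) ranged from 0.46 to 1.14 without and from 0.65 to 1.39 with BPS. The gene sat in evenly high surroundings: body means were 0.85 ± 0.12 and 1.01 ± 0.12, upstream means 1.04 ± 0.11 and 1.12 ± 0.16, and downstream means 0.88 ± 0.08 and 1.22 ± 0.09. All 11 downstream probes were higher with BPS. Chromosome III had the highest chromosome median of the 7, 0.40 and 0.35. The contrast of −0.11 ± 0.14 and −0.16 ± 0.15 was of about the size of its SE on each array.

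GPM1 encodes phosphoglycerate mutase and had the lowest body of the 10 on both arrays. It lies on the Crick strand of chromosome XI and rests on 1 body probe at 164.073 kb, which had −0.16 without and −0.77 with BPS. The noise of a probe, estimated from neighbouring probes as a robust SD, was 0.37 for such a difference, so the value of −0.61 is 1 probe with no SE. The next probe downstream was also lower with BPS (−0.23 and −0.97). The upstream flank was at −0.39 ± 0.10 and −0.31 ± 0.05 and the downstream flank at 0.10 ± 0.08 and −0.12 ± 0.12, near or below the genome median throughout.

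ENO1 and ENO2 encode the enolases and were the 2 highest bodies of the 10 on both arrays. ENO1, on the Watson strand of chromosome VII, had 3 body probes (1001.13 to 1002.22 kb) of 1.42, 1.39 and 1.48 without BPS and 1.28, 1.19 and 1.18 with it. Its mean without BPS, 1.43 ± 0.03, is a ratio 2.69 times the array median, and its mean with BPS, 1.22 ± 0.03, is 2.32 times. The flanks were lower, at 0.75 ± 0.26 and 0.64 ± 0.29 upstream and 0.71 ± 0.11 and 0.72 ± 0.08 downstream, so ENO1 was one of only 2 members above both flanks on both arrays. ENO1 has no probe between 1001.13 and 1001.91 kb, so its middle was not measured.

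ENO2, the main enolase on glucose, lies on the Watson strand of chromosome VIII (4 body probes, 451.506 to 452.619 kb). Its probes had 1.42, 0.56, 1.15 and 1.56 without BPS and 2.26, 1.07, 1.13 and 2.0 with BPS. Body and flanks were equally high, with 1.12 ± 0.17 and 1.41 ± 0.13 upstream and 1.19 ± 0.07 and 1.64 ± 0.10 downstream. The whole window stood higher with BPS, in 10 of 11 probes upstream, 3 of 4 in the body and 10 of 11 downstream. The body difference of 0.45 ± 0.18 was the highest of the 10 genes and lay within the same range as its flanks (0.29 ± 0.11 and 0.45 ± 0.12).

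CDC19 encodes pyruvate kinase, the last enzyme of the pathway. On the Watson strand of chromosome I its 6 body probes (71.925 to 73.253 kb) had 1.15, 1.43, 1.72, 1.40, 0.84 and −0.21 without BPS and 1.33, 1.29, 1.34, 1.40, 0.73 and 0.42 with BPS. The body was thus alike on the 2 arrays, at 1.06 ± 0.28 and 1.08 ± 0.17, and declined towards the gene's 3′ end. Upstream, however, all 16 probes were lower with BPS, with means of 0.81 ± 0.09 and 0.17 ± 0.16. These probes ranged from 0.03 to 1.29 (median 0.83) without and from −1.61 to 1.06 (median 0.38) with BPS, so the ranges overlapped. CYC3, the cytochrome c heme lyase gene in that flank, had 0.80 ± 0.11 and 0.09 ± 0.13. CDC19 was therefore the other gene above both flanks on both arrays, and the one whose contrast was most raised with BPS, from 0.37 ± 0.30 to 0.74 ± 0.22. The calls above both flanks depended on the windows: with flanks of 1 kb the contrast of CDC19 without BPS was −0.05, and with genes moved down 0.5 kb those of ENO1 were −0.29 and −0.61.

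Bodies below both flanks were more frequent among the 10 than over all genes. They were 5 of 10 without BPS, against 22.9% of all genes, and 6 of 10 with BPS, against 21.8%. On both arrays they were TDH1, TDH2, TDH3, PGK1 and FBA1, against 10.7% of all genes and 11.7% of the 4037 genes with 1 to 6 body probes, the range of the 10. Bodies above both flanks were ENO1 and CDC19 on each array, 2 of 10 beside 26.9% without BPS, 30.9% with BPS and 15.5% on both. The set was hence not uniform, and with 5 of the 10 being close copies of each other the genes are not independent: with the paralogs left out, 2 of the remaining 5 lay below both flanks on both arrays. The count depended on the width of the flanks: none of the 10 lay below both flanks on both arrays with flanks of 1 kb. With flanks of 5 kb 3 did, and 3 did with medians in place of means. No share over all genes was computed for these settings, so these counts cannot be set against the genome.

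The median contrast was −0.07 without and −0.38 with BPS, beside 0.02 and 0.04 over all genes. Contrasts below −0.25 were seen at 3 genes without BPS (TDH1, TDH2 and TDH3), against 10.6% of all genes, and at 6 with BPS (these and FBA1, GPM1 and TPI1), against 15.7%; the 3 TDH genes were so on both arrays, against 5.52%. Contrasts above 0.25 were those of ENO1 and CDC19 on each array, 2 of 10 beside 14.5% without BPS, 24.4% with BPS and 8.84% on both. The contrast was lower with BPS at 8 of 10 genes, against 45.6% of all genes, and by more than 0.25 at 6 of 10, against 13.8%. At 2 of these 6 genes, TDH2 (−0.76 ± 0.33) and TDH3 (−0.31 ± 0.15), the shift was over 2 times its SE. At TDH1, FBA1 and TPI1 it was less, and GPM1 has no SE. The share of all genes with a shift over 2 times its SE was not computed. The median shift of −0.27 was −0.05 with flanks of 1 kb and −0.02 with gene positions moved 0.5 kb up the chromosome, a move that also turned the median contrast with BPS to 0.03.

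**Figure D3:**
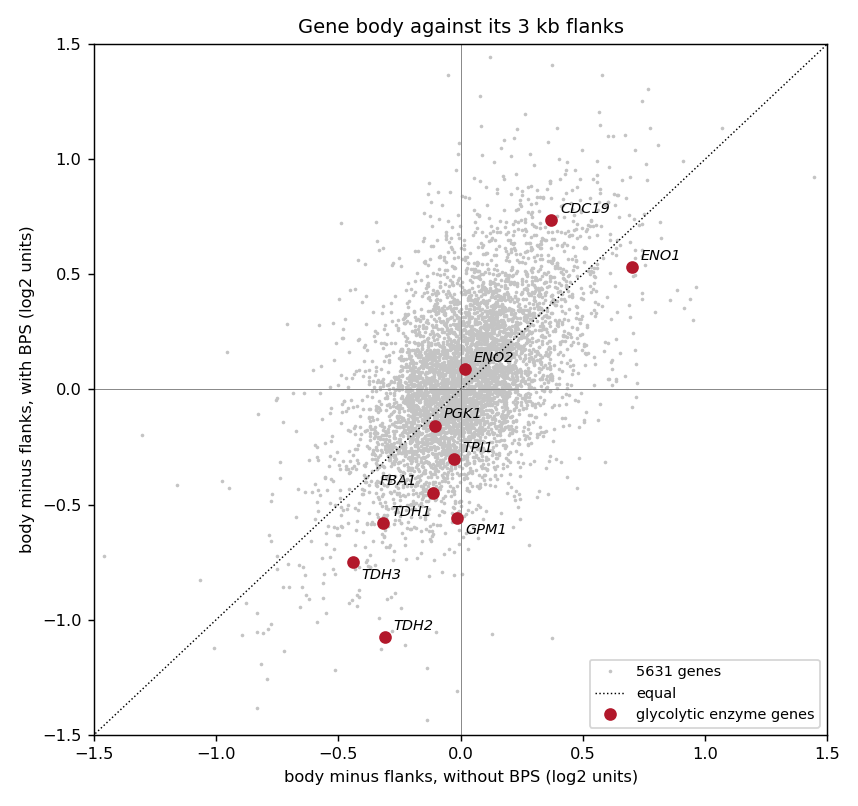
Body minus flank contrast without BPS (horizontal axis) against that with BPS (vertical axis), both in log2 units, for all 5631 genes (grey, those beyond the axis limits not drawn) and the 10 glycolytic enzyme genes (red). The dotted line marks equal values; 8 of the 10 lie below it, TDH2 at −0.31 and −1.08, while CDC19 and ENO2 lie above it.

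Between the arrays, body levels were mostly lower with BPS. The median difference was −0.31, beside −0.03 over all genes, and 7 of 10 bodies were lower, against 52.7% of all genes. TDH2 (−0.67 ± 0.32), TDH3 (−0.69 ± 0.14) and GPM1 (−0.61) passed −0.5, which is 3 of 10 beside 8.65%, and none of the 10 passed 0.5, where 10.5% of all genes were. With genes moved up 0.5 kb the median difference turned to 0.07 and none passed −0.5. The upstream flanks were higher with BPS at 7 of 10 beside 42.6%, with a median difference of 0.11. Of these 7, the rise was smaller than its SE at TDH1, PGK1, FBA1 and GPM1. A lower body went with a higher upstream flank at TDH1, TDH2, FBA1, GPM1 and TPI1. At TDH3 and ENO1 both were lower, and at PGK1 and ENO2 both were higher. TDH3 (−0.57 ± 0.10) and CDC19 (−0.63 ± 0.11) were the upstream flanks that differed by more than 0.5, 2 of 10 beside 13.4%. Downstream flanks were lower at 6 of 10, against 55.2% of all genes.

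The 5 genes on the Crick strand and the 5 on the Watson strand separated in the body difference, a split seen after the values were known. Crick genes, which are FBA1, TPI1, TDH2, TDH3 and GPM1, ranged from −0.69 to −0.40 (median −0.61). Watson genes, which are TDH1, PGK1, ENO1, ENO2 and CDC19, ranged from −0.21 to 0.45 (median 0.03), so the ranges did not overlap. They overlapped under 4 of 12 alternatives: quantile normalization (ENO1 at −0.48 beside TPI1 at −0.47), genes moved down 0.5 kb (TDH1 at −0.53 beside GPM1 at −0.43) or up 0.5 kb (ENO1 at −0.09 beside GPM1 at 0.15), and probes within 0.25 kb of gene ends left out (TDH1 at −0.86 beside TPI1 at −0.36). The other 8 include settings that could not create an overlap. Flanks of 1 kb or 5 kb leave the bodies as they are, and centring moves all genes alike. Leaving out the paralogs only removes genes. Over all genes the medians were −0.06 for 2806 Crick genes and 0.01 for 2825 Watson genes. Medians of 5 genes scatter more than medians of so many, so the gap among the 10 cannot be set directly against this one. The contrast with BPS showed the split less fully, with medians of −0.56 and 0.09 and overlap through TDH1 (−0.58).

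**Figure D4:**
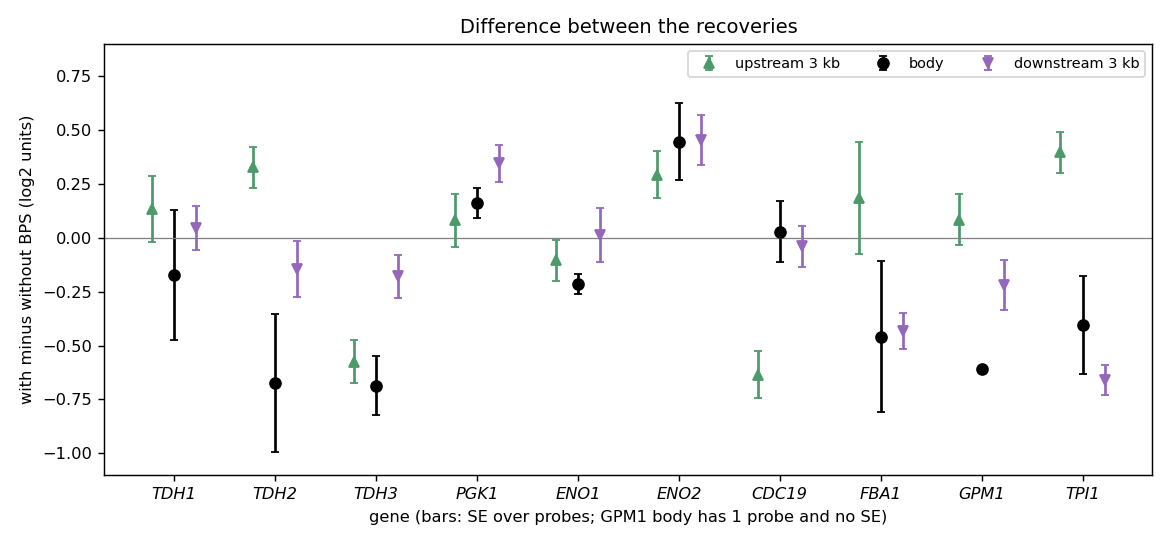
Difference with minus without BPS in log2 units (vertical axis) for the upstream flank, body and downstream flank of each gene (horizontal axis); bars are SE over probes. Bodies of FBA1, TPI1, TDH2, TDH3 and GPM1 are at −0.40 or lower, and at TPI1 the flanks lie on opposite sides of 0 (0.40 and −0.66).

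Which flank was higher depended on how much of it was averaged. With flanks of 3 kb, upstream was above downstream at 6 of 10 genes without BPS, against 49.2% of all genes, and at 4 of 10 with BPS, against 47.2%; TDH1, FBA1 and TPI1 were so on both arrays, against 38.5%. The sign differed between the arrays at 4 of 10 (TDH2, PGK1, ENO1 and CDC19), against 19.4%. The median of upstream minus downstream was 0.05 and −0.09, beside −0.01 and −0.04 over all genes. With flanks of 1 kb, upstream was below downstream at 8 of 10 genes without BPS, all but CDC19 and TPI1. With BPS this was so at 7 of 10, all but TDH2, GPM1 and TPI1. The medians were −0.33 without and −0.43 with BPS. No share over all genes was computed for flanks of 1 kb, so these counts cannot be set against the genome. With flanks of 3 kb, only TPI1 with BPS (1.20 ± 0.10), GPM1 without BPS (−0.49 ± 0.13) and TDH3 with BPS (−0.49 ± 0.20) exceeded 2 times their SE. How many of all genes did so was not computed either.

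Finer bins, added after the values were seen, placed the lowest signal just before the gene start. Averaged over the 10 genes, the 0.5 kb upstream of the start had 0.28 without and 0.14 with BPS, against 0.66 and 0.66 in the next 0.5 kb upstream. The body had 0.64 and 0.38, and the first 0.5 kb downstream 0.83 and 0.57. Over all genes the same bin before the start had −0.02 and −0.09, and the body 0.03 and 0.04, so the bin before the start was also the lowest over all genes, by less. The near 0.5 kb, which held 1 to 4 probes per gene, lay below the rest of the upstream flank at 9 of 10 genes on each array, all except CDC19, against 50.5% of all genes without BPS, 55.5% with BPS and 35.9% on both. Downstream, it lay below the rest at 3 of 10 without BPS (47.6%), 4 with BPS (48%) and 3 on both (31.8%).

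**Figure D5:**
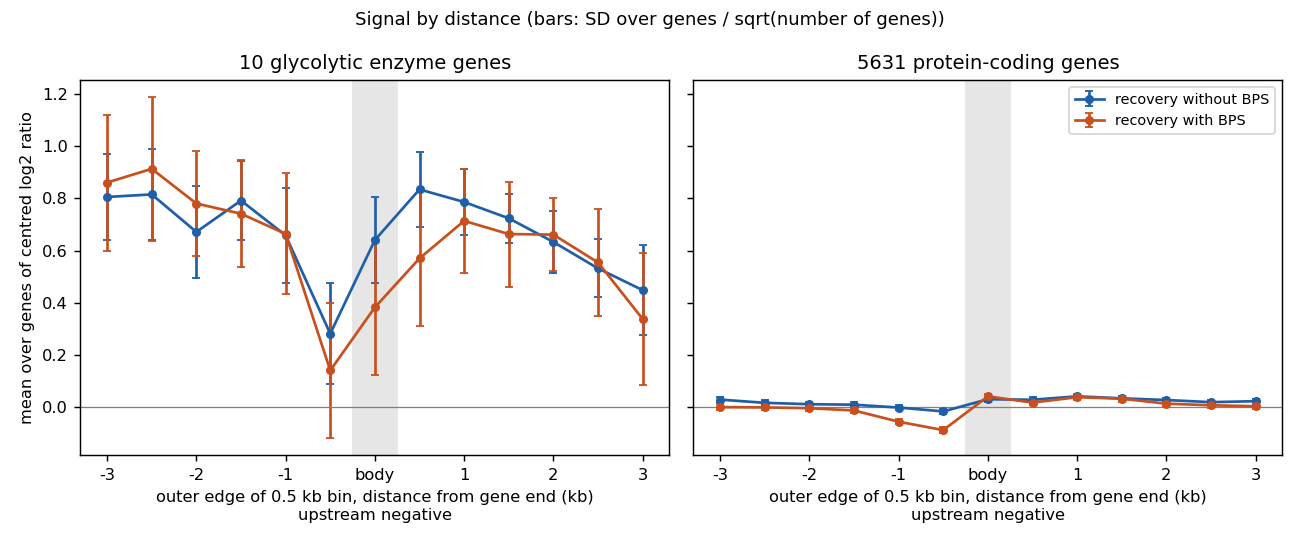
Mean over genes of the centred log2 ratio (vertical axis) in 0.5 kb bins upstream, in the body (grey) and downstream (horizontal axis), for the 10 genes (left) and all genes (right), without BPS (blue) and with BPS (orange). Bars are the SD over genes divided by the square root of their number; the lowest bin of the 10 genes is the 0.5 kb before the start, at 0.28 and 0.14.

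Single low probes made up a large part of that dip. A probe was counted as such when it lay more than 1 log2 unit below both neighbours on both arrays, with neighbours within 0.5 kb. There were 8 among 250 probes that could be judged, or 3.2%, against 0.99% of all probes; 6 were upstream of a gene, 1 in a body and 1 downstream. They were at 337.465 and 337.921 kb before TDH1 and 339.269 kb at its end, 884.292 kb before TDH3, 1000.17 and 1000.88 kb before ENO1, 327.62 kb before FBA1, and 450.683 kb beyond TDH2. The probe before FBA1 read −1.47 without and −2.26 with BPS, and the later one before ENO1 read −1.27 and −1.80. Among probes in no protein-coding gene they were 1.17% genome-wide. With them left out, the near 0.5 kb lay below the rest of the upstream flank at 7 of 10 genes without BPS (51%), 7 with BPS (56.1%) and 6 on both arrays (36.1%), namely PGK1, TPI1, ENO2, TDH2, GPM1 and FBA1. The median difference moved from −0.44 and −0.53 to −0.09 and −0.16. The downstream counts stayed at 3, 4 and 3, beside 48.1%, 48.3% and 31.6%. Whether these probes report DNA in the cells or their own hybridisation was not tested.

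Bodies below both flanks on both arrays were also counted in other genes of sugar metabolism; in each list the genes named are the highest and lowest by the average of both arrays. Of 9 other glycolytic enzymes (hexokinases, glucokinase, phosphoglucose isomerase, phosphofructokinase and minor isozymes), none had such a body, beside 10.7% of all genes. Bodies of 7 of the 9 were above the genome median on both arrays, beside 42.9%. Their median body was 0.58 without and 0.79 with BPS, and their contrast 0.06 and 0.04. PYK2, the minor pyruvate kinase, was the highest (0.62 ± 0.13 and 1.14 ± 0.12), and PFK2, a phosphofructokinase subunit, the lowest (−0.57 ± 0.06 and −0.36 ± 0.14). GPM2 had the highest contrast (0.45 and 0.81) and PFK1 the lowest (−0.18 and −0.25).

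The same share of 10.7% applies to the lists that follow, and with lists this short their counts are not set apart from it. Among 8 fermentation genes, 2 had bodies below both flanks on both arrays, and the median contrast was −0.02 without and −0.14 with BPS. PDC1, the main pyruvate decarboxylase, had the lowest contrast (−0.27 and −0.88) and a body at 0.37 ± 0.09 and −0.07 ± 0.08. The alcohol dehydrogenase gene ADH4 had the highest body level (0.97 ± 0.05 and 1.80 ± 0.20) and contrast (0.49 and 0.78), and ADH5 the lowest body (−0.31 and −0.35). None of 4 gluconeogenesis genes had such a body: PYC1, a pyruvate carboxylase gene, was the highest (0.93 and 0.45) with the lowest contrast (0.04 and −0.22), PYC2 had the highest contrast (0.38 and 0.39), and FBP1, the fructose bisphosphatase gene, was the lowest (−0.80 and −1.26).

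Of 6 regulators 1 had such a body, near the share over all genes. GCR1, the activator of glycolytic genes, was the highest (0.84 ± 0.10 and 0.28 ± 0.24). Its partner GCR2 was the lowest (−0.80 ± 0.11 and −1.19 ± 0.14) and had the lowest contrast (−0.18 and −0.16), and TYE7, another activator of glycolytic genes, had the highest contrast (0.14 and 0.99). Of 7 hexose transporters 5 could be measured, with HXT6 and HXT7 lacking probes in a body or flank, and none had such a body. HXT2 was the highest (0.49 and 1.06), HXT3 the lowest (0.33 and 0.23) with the highest contrast (0.25 and 0.73), and HXT5 had the lowest contrast (−0.10 and −0.28).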

How the data were processed

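Break-chip DNA of 2 recovery cultures was compared with G1 DNA, 1 array per group. The submitters' processing notes name Agilent Feature Extraction 9.5.1. From each array the authors deposited a linear ratio for 41480 probes, called normalized in the file; the method, the numerator and the genome build are not given in the sources used here; medians were 1.21 without and 1.23 with BPS. No scanner signals were used, so signal over background was not assessed, and the number of arrays limits the precision.

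The log2 of each deposited ratio was taken and the array's median subtracted, with no filter on low values. Genes were placed by RefSeq assembly R64, and strand was read from the systematic name. The placement was checked on 35 protein-coding frames of 3000 bp or longer with a hyphenated name, mostly transposon frames without probes: they held 2 probes in place, 37 when moved 0.5 kb up and 38 when moved 0.5 kb down the chromosome. Such frames lay on 3 of the 7 chromosomes of the 10 genes. Windows were averaged over probes in Python 3.11.15 with numpy 2.4.6 and pandas 2.3.3. The measurement was tested on simulated data.

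The genes and lists were chosen with earlier results of these data known. All 10 genes are named; of each other list only the highest and lowest gene by body level and by contrast. Neighbouring genes with values, the 0.5 kb bins, the split by strand, the single low probes and the shift of the contrast with BPS were chosen after the values were seen. Alternatives are given with the dependence on processing.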

Additional observations from a re-analysis of the deposited data

Results flagged for a closer look

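Some values lay on opposite sides of 0 on the 2 arrays, a difference between groups that was not tested because there is 1 array per group. The TDH2 body level was 0.59 without and −0.081 with BPS. Upstream minus downstream turned sign at 4 of 10 genes, beside 19.4% of all genes: it was −0.11 and 0.36 at TDH2, 0.16 and −0.10 at PGK1, 0.039 and −0.080 at ENO1, and 0.24 and −0.35 at CDC19.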

How the results depend on the processing

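Body levels, contrasts, upstream minus downstream, the differences with BPS, the split by strand and the counts of bodies below both flanks, of bodies lower by more than 0.5 and of contrasts lower with BPS were recomputed under 12 alternatives, 1 of them (single low probes left out) added after the data were seen. Body levels do not depend on the flanks. The counts of the near 0.5 kb were recomputed without single low probes only. The 0.5 kb profile, 20 kb regions, neighbours, other lists and remaining counts were not recomputed. Apart from those of the near 0.5 kb, shares over all genes were not recomputed, so counts under changed settings cannot be set against the genome. Over the summary results, 121 of 152 recomputed values moved by less than the median SE of a gene or, for counts, by no more than 1.5 times. Some of these could not move, since body differences do not use the flanks and contrasts do not depend on centring. A value near 0 could turn sign within that margin. The median of upstream minus downstream with BPS, −0.090 as first computed, was 0.035 with flanks of 5 kb and with genes moved down. It was 0.084 with medians over probes, 0.063 without probes near gene ends and 0.071 without single low probes, and negative otherwise. With flanks of 1 kb, the count of bodies below both flanks was 1 without BPS, 3 with BPS and 0 on both arrays, the median contrast with BPS was −0.065, the median shift of the contrast was −0.055, and upstream minus downstream was −0.33 without and −0.43 with BPS. With flanks of 5 kb, and also with medians over probes, the count of bodies below both flanks was 3 without BPS and 3 on both arrays. Moving genes up 0.5 kb turned the median contrast with BPS to 0.031 and the median body difference to 0.068, and gave a body level of 0.64 with BPS, a shift of the contrast of −0.023, 0 bodies lower by more than 0.5 and 5 contrasts lower with BPS. Moving them down gave 3 bodies below both flanks on both arrays. Bodies lower by more than 0.5 numbered 5 after that move, division by the robust SD, subtraction of the 20 kb regional mean, and removal of probes within 0.25 kb of gene ends. With the 5 paralogs left out, bodies below both flanks numbered 2, 3 and 2 (without BPS, with BPS, both) of 5, with 1 lower by more than 0.5 and 4 contrasts lower. Without centring the median body levels were 0.95 and 0.53. With the regional mean subtracted the level was 0.29 without BPS and −0.014 with BPS, where it turned sign. With single low probes left out the level with BPS was 0.56. Causes were not tested.

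Among single genes 16 of 880 recomputed values were counted as reversed, and these are given below. Other values also turned sign but were counted only as moved or as unchanged. Examples are the contrast of PGK1 with BPS, 0.07 with flanks of 1 kb, and the body difference of TPI1, 0.12 with genes moved up 0.5 kb. With flanks of 1 kb the contrast without BPS was −0.050 at CDC19 and 0.020 at TDH1, and at FBA1 the shift of the contrast was 0.00020 and upstream minus downstream with BPS −0.44. Moved up 0.5 kb, TPI1 had a contrast with BPS of 0.17, the shift of the contrast was 0.24 at TPI1, 0.11 at TDH1 and 0.28 at GPM1, the GPM1 body difference was 0.15, and the FBA1 body without BPS was −0.0018. Moved down, the contrast was 0.0020 at TDH3 without BPS, and −0.29 and −0.61 at ENO1. TDH1's contrast without BPS was 0.65 without probes near gene ends and 0.063 without single low probes, and TPI1's body with BPS was −0.25 with the regional mean subtracted. No paired analysis was possible because each group has 1 array.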
